A study of Homo sapiens with 51 samples.

Results

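The matrix metalloproteinases (MMP), the ADAMTS proteases and the tissue inhibitors of metalloproteinases (TIMP) were followed during differentiation of H1 cells, a line of human embryonic stem cells. Members were every row of the count table whose gene symbol is MMP, ADAMTS or TIMP followed by its number, which gave 46 of 58051 rows: 23 MMP, 19 ADAMTS and 4 TIMP genes. Cells of the first condition received BMP4 alone at 50 ng/mL (called BMP4 here). Those of the second received Activin at 100 ng/mL with BMP4 at 10 ng/mL (called Activin+BMP4), so the conditions differ in the BMP4 dose as well as in Activin. Each was sampled at 1, 6, 12, 24, 36, 48, 72 and 96 h. Both were given in TeSR E5 with insulin, FGF2 and the compound the labels write as LY29004. Untreated cells (0 h) were in mTeSR, so medium, time and growth factors change together against them and cannot be told apart. The 17 groups had 3 libraries each, 51 in all.

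MMPs are zinc proteases that cut collagens, laminins, fibronectin and many other proteins at or near the cell surface. They are made as inactive precursors, and some are anchored in the membrane while others are secreted. ADAMTS proteases are secreted and carry thrombospondin repeats. Several cut the large proteoglycans, and others trim procollagens or act on fibrillin microfibrils. TIMPs bind the active site of MMPs, and TIMP3, which is held in the matrix, also inhibits several ADAMTS proteases. Remodelling of the basement membrane accompanies gastrulation, when epithelial cells leave the epiblast. RNA levels do not give protease activity, which also depends on activation and inhibition of the protein.

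Totals ran from 22788905 to 30354633 counts per library, with a median of 24944617. Levels are CPM, counts scaled to the normalised library total, as mean ± SD with n = 3 unless given per library. Libraries of a group correlated at 0.993 or above on log2 CPM. Replicate 2 of Activin+BMP4 48 h, replicate 3 of Activin+BMP4 96 h and replicate 1 of BMP4 12 h stood apart from their partners in count noise (chi-square per degree of freedom). Some other libraries also differed from their partners. For replicate 2 of Activin+BMP4 36 h the value was 10.8 and 16.2 with its partners and 4.22 between them. Those others were left out only singly. Without the 3 libraries that stood apart the calls between conditions stayed at 9 members at 48 h and 12 at 96 h. They numbered 2 in place of 3 at 12 h, where ADAMTS1 was no longer called. Since separate cultures are not named in the labels, the p-values reflect only the spread between these samples, which may be technical. In bulk RNA a change in the share of cells and a change in RNA per cell cannot be told apart. Calling a member took at least a 2-fold difference and an adjusted p under 0.05 in edgeR's quasi-likelihood test, with Benjamini-Hochberg adjustment over 19603 genes.

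Expression was uneven across the members. Of the 46, 36 passed the filter on low counts, and these were 13 MMP, all 19 ADAMTS and all 4 TIMP genes. The 10 that did not pass never exceeded 5 counts in any library. They were MMP1 (highest count 1), MMP3 (2), MMP7 (1), MMP8 (1), MMP12 (2), MMP13 (5), MMP20 (1), MMP21 (3), MMP26 (1) and MMP27 (0). No count of MMP27 was found in any of the 51 libraries, which allows a level of up to 0.00229 CPM by counting error alone. The collagenases MMP1, MMP8 and MMP13 were thus near or at the detection limit in every group.

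Most of those undetected or barely detected genes are neighbours. On chromosome 11 (GRCh38, GENCODE release 29) 9 MMP genes lie on the minus strand within 435.2 kb, between 102520508 and 102955734, and 8 of them never exceeded 5 counts. The exception was MMP10, stromelysin-2, with up to 34 counts in a library. RefSeq promoter windows (GRCh38.p14, the 250 bases before the annotated start) were available for 27 members, 5 of them in this cluster. TATAAA, the TATA box core, was present in 4 of the 5 and TGANTCA, the AP-1 motif, in 3, while GGGCGG, an Sp1-type motif, was in none. The position of TATAAA varied: it began 31 and 30 bases before the start in MMP10 and MMP7, but 72 and 110 in MMP20 and MMP8. Of 20 members outside the cluster that passed the filter and had a window, 1 held TATAAA, 1 held TGANTCA and 19 held GGGCGG. The TATAAA was that of ADAMTS10, 78 bases before the start in 1 of its windows. Among 35116 windows of the same length the shares were 10.7% for TATAAA, 6.57% for TGANTCA and 42.6% for GGGCGG, on either strand. CpG dinucleotides numbered 0 to 3 in the cluster windows (median 2) and 6 to 40 in those 20 (median 22). The features were not particular to the cluster: MMP21 and MMP26, which lie outside it and did not pass the filter, both held TATAAA and no GGGCGG, with 6 and 0 CpG. Their TATAAA began 92 and 28 bases before the start. A motif match is a description and not a site of binding. Shown are MMP10 and MMP7 from the cluster, then TIMP3 and MMP14, whose levels are described below. They run 5′ to 3′ on the gene's strand, with the matches of these motifs on either strand in capitals. Their windows are chr11:102780629-102780878 (minus strand) for MMP10, chr11:102530748-102530997 (minus) for MMP7, chr22:32801455-32801704 (plus) for TIMP3 and chr14:22836335-22836584 (plus) for MMP14.
MMP10: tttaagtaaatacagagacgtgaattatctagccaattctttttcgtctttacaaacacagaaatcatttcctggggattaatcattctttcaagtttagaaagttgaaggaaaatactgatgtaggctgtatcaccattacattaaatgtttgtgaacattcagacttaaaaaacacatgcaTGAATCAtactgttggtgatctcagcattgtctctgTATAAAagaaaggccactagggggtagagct
MMP7: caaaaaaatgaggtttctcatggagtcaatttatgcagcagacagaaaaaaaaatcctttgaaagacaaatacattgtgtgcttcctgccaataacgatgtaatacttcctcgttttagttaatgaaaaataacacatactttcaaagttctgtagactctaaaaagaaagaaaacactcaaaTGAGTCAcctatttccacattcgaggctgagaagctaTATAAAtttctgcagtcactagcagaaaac
TIMP3: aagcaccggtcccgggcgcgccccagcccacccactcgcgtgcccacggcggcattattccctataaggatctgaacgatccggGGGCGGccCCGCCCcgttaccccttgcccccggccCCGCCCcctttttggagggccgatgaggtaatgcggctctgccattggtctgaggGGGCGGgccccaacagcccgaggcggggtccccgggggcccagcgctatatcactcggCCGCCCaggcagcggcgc
MMP14: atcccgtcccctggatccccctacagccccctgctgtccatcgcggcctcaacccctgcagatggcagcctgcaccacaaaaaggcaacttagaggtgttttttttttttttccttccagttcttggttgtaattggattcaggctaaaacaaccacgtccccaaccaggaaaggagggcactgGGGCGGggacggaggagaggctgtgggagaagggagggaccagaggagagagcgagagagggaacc
In MMP10 the TATAAA began 31 and the AP-1 match 67 bases before the start, and in MMP7 they began 30 and 67 bases before it. TIMP3 held 5 GGGCGG matches and 26 CpG, and 80.4% of all windows had fewer CpG, while MMP14 held 1 match and 7 CpG.

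**Figure D1:**
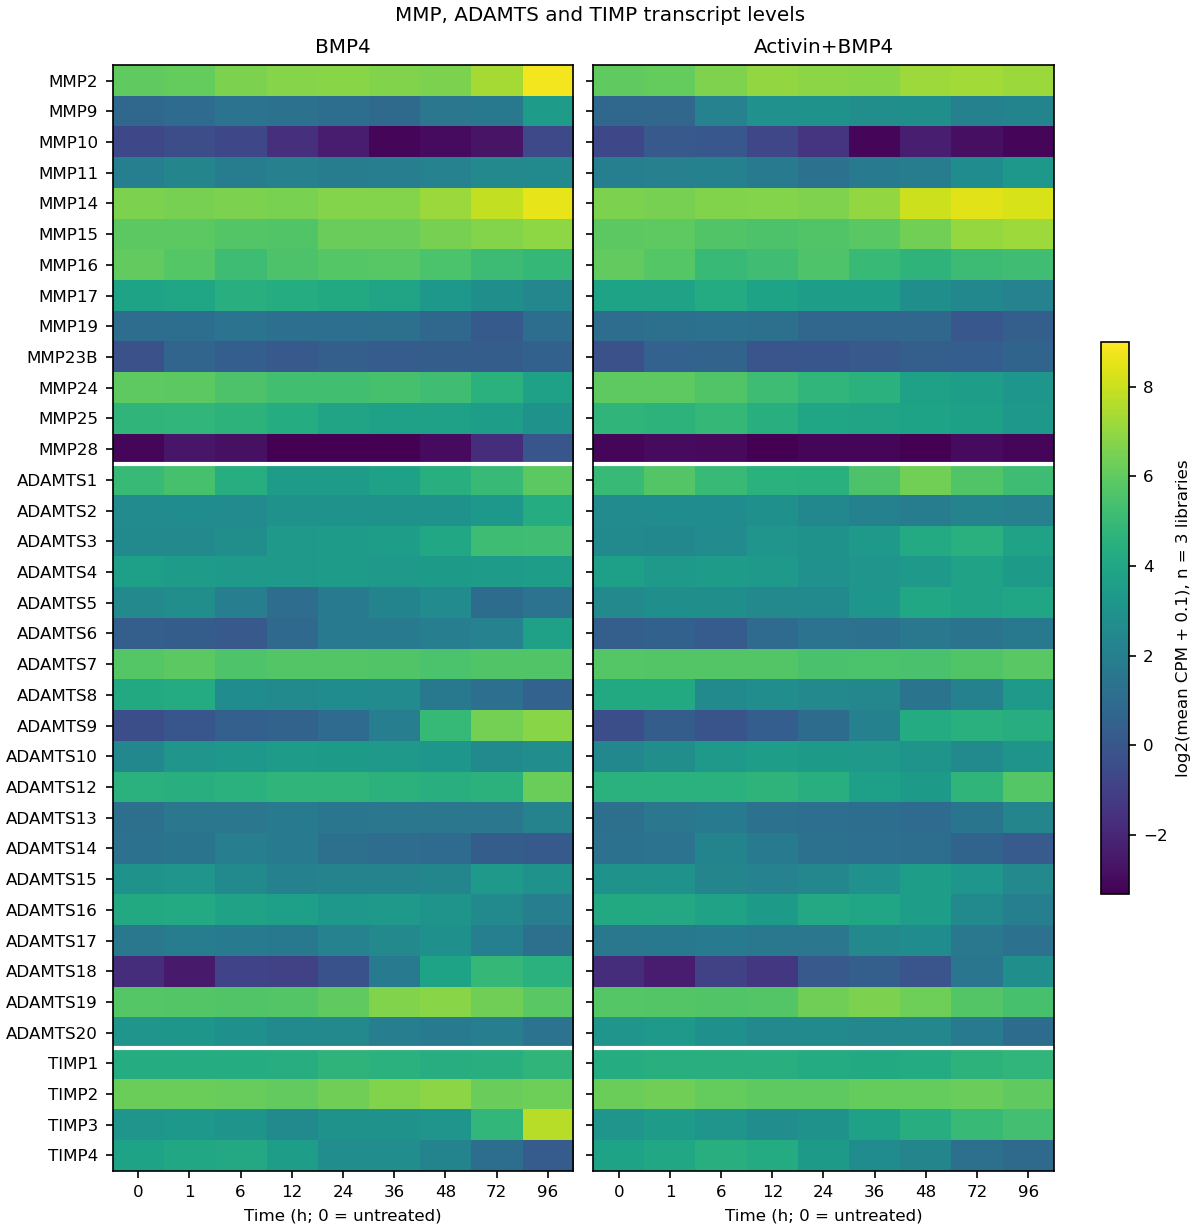
Mean level of the 36 tested members as log2(CPM + 0.1) by colour, for BMP4 (left) and Activin+BMP4 (right), with untreated cells at time 0. White lines separate MMP, ADAMTS and TIMP genes. MMP2, MMP14 and TIMP3 are brightest at 96 h of BMP4, and MMP10 and MMP28 stay dark at most times.

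The first question is when the conditions diverge. No member was called between BMP4 and Activin+BMP4 at 1 h, where 0.0051% of all tested genes were, or at 6 h, where 0.505% were (0.189% higher and 0.316% lower in BMP4). DESeq2 also called none at these times, and 4 members had an unadjusted p under 0.05 at each. At 12 h 0 members were higher and 3 lower in BMP4, where 1.42% of all genes were called, 0.658% higher and 0.765% lower. At 24 h 0 were higher and 2 lower, beside 4.01% of all genes (2.41% higher, 1.6% lower). At 36 h 1 was higher and 2 were lower, beside 5.58% (3.02% higher, 2.56% lower), and without replicate 2 of Activin+BMP4 36 h 2 were higher and 3 lower. At 48 h 4 were higher and 5 lower, beside 9.25% (4.86% higher, 4.39% lower). At 72 h 4 were higher and 1 lower, beside 9.63% (5.07% higher, 4.56% lower), but 2 and 2 without replicate 1 of Activin+BMP4 72 h. At 96 h 10 were higher and 2 lower, beside 15.6% (7.62% higher, 7.95% lower). The 10 included MMP28, which passed the filter on low counts only through its BMP4 96 h libraries. With a filter of 1 CPM in 3 libraries 9 were higher and 2 lower. The median log2 fold change of the tested members at 96 h was 0.29, against 0.00 over all genes tested, and at 48 h it was 0.10 against 0.00. By family at 96 h, 4 of 13 MMP genes were higher, 5 of 19 ADAMTS genes were higher and 2 lower, and 1 of 4 TIMP genes was higher.

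**Figure D2:**
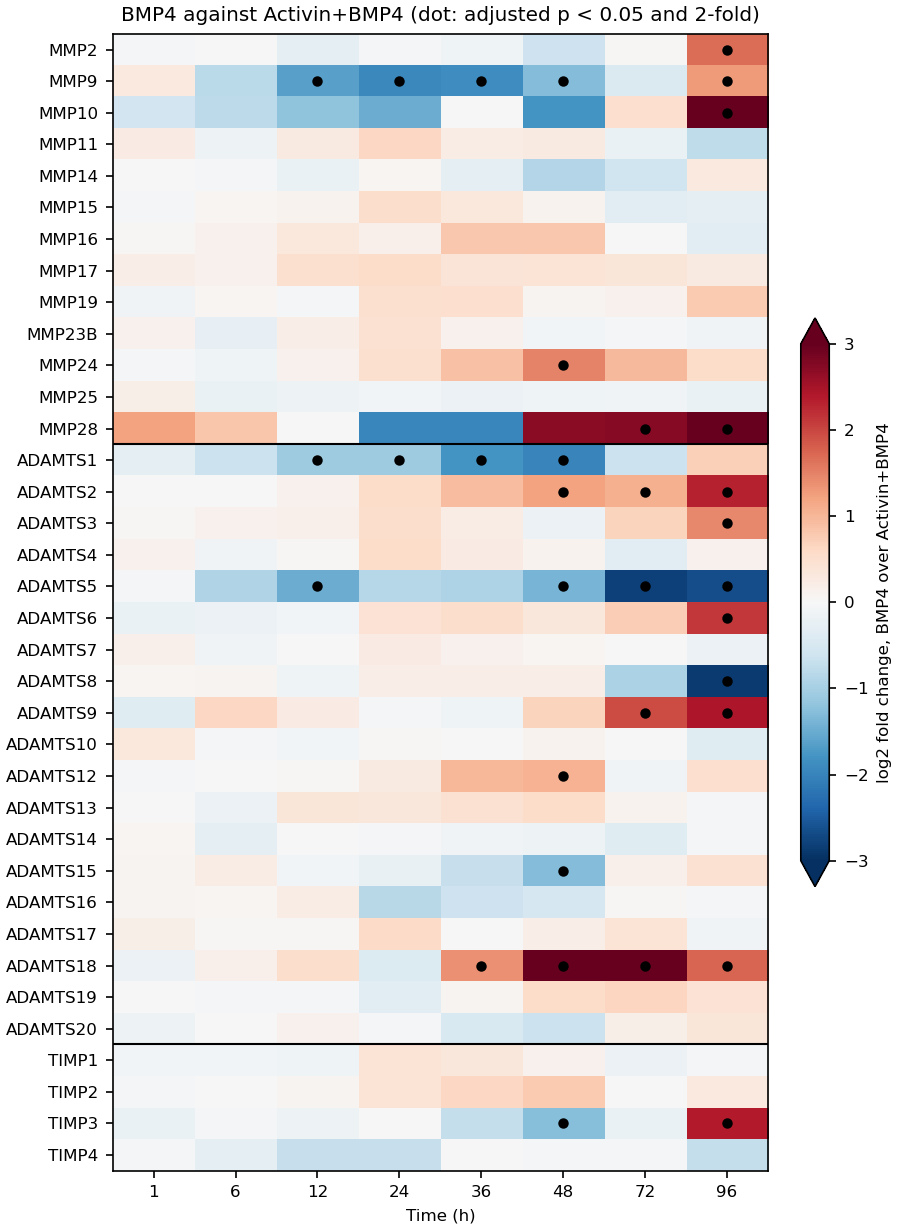
Log2 fold change of BMP4 over Activin+BMP4 for each tested member (rows) and time (columns), red where higher in BMP4 and blue where lower, with a dot where a member was called. Blue dots of MMP9, ADAMTS1 and ADAMTS5 begin at 12 h, and at 96 h 10 dots are red and 2 are blue.

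TIMP3, the matrix-bound inhibitor, crossed over between the conditions. At 48 h it had 8.57, 8.79 and 8.18 CPM in BMP4, against 19.9, 21.8 and 20.0 CPM in Activin+BMP4, and 8.48, 8.49 and 8.30 CPM in untreated cells. BMP4 cells were thus still at the untreated level, below every Activin+BMP4 library (log2 fold change -1.27 ± 0.14 SE, adjusted p = 6.75e-10). At 96 h TIMP3 had 258.7, 216.4 and 144.4 CPM in BMP4, against 35.1, 37.8 and 45.6 CPM in Activin+BMP4. Every BMP4 library was now above every Activin+BMP4 library, although the BMP4 libraries spread widely, and the difference was 5.22-fold (log2 2.38 ± 0.11 SE, adjusted p = 4.52e-22). SYN3, on the opposite strand around it, shares no exon base with TIMP3.

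The other inhibitors moved less or in another way. TIMP2, which inhibits MMP2 and also takes part in its activation by MMP14, had 115.6, 115.3 and 117.9 CPM in BMP4 at 48 h, against 66.3, 67.5 and 68.4 CPM in Activin+BMP4. Libraries did not overlap, but at 1.72-fold (adjusted p = 9.33e-19) TIMP2 stayed short of the 2-fold threshold, and at 72 h it averaged 73.7 ± 4.80 CPM in BMP4 and 73.0 ± 1.72 CPM in Activin+BMP4. TIMP1 lay between 18.1 and 27.8 CPM in every group mean and was called in no comparison. TIMP4 fell in both conditions: at 96 h it had 1.11 ± 0.195 CPM in BMP4 and 1.84 ± 0.620 CPM in Activin+BMP4, against 14.0 ± 1.55 CPM in untreated cells, 12.6-fold lower in BMP4 and 7.63-fold lower in Activin+BMP4 (adjusted p = 1.21e-23 and 1.06e-21). SYN2, on the other strand, covers 10.3% of the TIMP4 exon bases, and whether the counting used strand is not given in the sources used here.

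Per kilobase of exon the inhibitor pool changed its leading member. The 4 TIMP genes summed to 77.0 ± 14.0 CPM per kb in BMP4 at 96 h, 39.1 ± 2.26 in Activin+BMP4 at 96 h and 36.5 ± 1.62 in untreated cells. TIMP3 made up 58.3% of that sum in BMP4, 21.9% in Activin+BMP4 and 5.0% in untreated cells, where TIMP2 and TIMP1 had 13.3 and 13.0 CPM per kb. MMP genes summed to 217.6 ± 18.5 CPM per kb in BMP4 at 96 h, 142.9 ± 15.6 in Activin+BMP4 and 79.2 ± 0.96 in untreated cells. In BMP4 at 96 h the MMP sum was led by MMP2 at 90.7 ± 8.54 CPM per kb and MMP14 at 83.5 ± 9.10, which do not differ beyond their spread, and then MMP15 at 27.1.

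**Figure D3:**
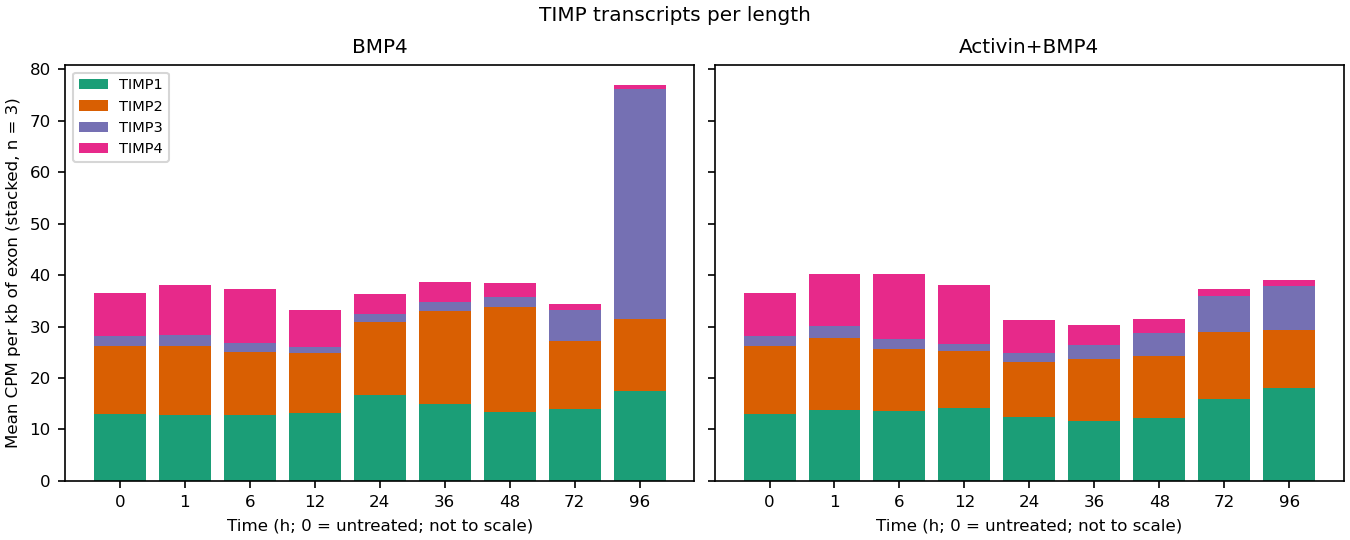
Stacked mean levels per kilobase of exon (n = 3) of TIMP1 to TIMP4 by time, BMP4 left and Activin+BMP4 right, with untreated cells at time 0. The TIMP3 segment is 44.9 CPM per kb in BMP4 at 96 h and 8.58 in Activin+BMP4 at 96 h, and the TIMP4 segment shrinks in both.

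The secreted gelatinase MMP2 was called between the conditions only at 96 h. It had 453.3, 486.2 and 402.5 CPM in BMP4 at 96 h, against 141.9, 152.3 and 126.1 CPM in Activin+BMP4, and 64.5, 61.8 and 64.5 CPM in untreated cells. The groups did not overlap, and BMP4 was 3.19-fold above Activin+BMP4 (log2 1.67 ± 0.06 SE, adjusted p = 6.78e-25). At 48 h the order was the other way round, with 96.2, 93.2 and 94.8 CPM in BMP4 and 147.9, 142.5 and 149.2 CPM in Activin+BMP4, a difference below 2-fold (log2 -0.63 ± 0.07 SE, adjusted p = 1.38e-10). MMP14, the membrane-type protease that activates the MMP2 precursor, rose in both conditions. At 48 h it was called against untreated cells in Activin+BMP4 (2.79-fold) and not in BMP4 (1.51-fold), and it had 146.1, 141.3 and 141.6 CPM in BMP4 and 251.0, 274.6 and 263.9 CPM in Activin+BMP4 (log2 -0.88 ± 0.07 SE). At 96 h its libraries overlapped, at 400.9, 391.0 and 326.1 CPM in BMP4 and 330.4, 340.2 and 245.8 CPM in Activin+BMP4. That was 3.94-fold and 3.23-fold above the 94.5 ± 1.83 CPM of untreated cells (adjusted p = 2.22e-26 and 3.71e-24).

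MMP9, the other gelatinase, was low throughout and changed sides. At 24 h it had 1.94, 1.99 and 2.27 CPM in BMP4 and 7.60, 8.50 and 7.75 CPM in Activin+BMP4 (log2 -1.94 ± 0.14 SE, adjusted p = 1.06e-14). Lower levels in BMP4 were called at 12, 24, 36 and 48 h. At 96 h BMP4 had 13.0, 11.8 and 8.88 CPM and Activin+BMP4 had 4.48, 5.15 and 4.28 CPM, so BMP4 was 2.42-fold higher (log2 1.27 ± 0.12 SE, adjusted p = 6.40e-12). SLC12A5-AS1, on the opposite strand, shares 18.4% of the MMP9 exon bases and had at most 37 counts in a library. It was not tested how far its reads enter the MMP9 count.

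The other membrane-bound MMPs went different ways. MMP24, a membrane-type protease known from neural tissue, had 37.3, 36.8 and 37.3 CPM in BMP4 at 48 h, against 12.5, 13.2 and 14.2 CPM in Activin+BMP4 (2.78-fold, adjusted p = 1.96e-14). Both were below the 63.5, 63.5 and 58.7 CPM of untreated cells, and by 96 h MMP24 was 4.72-fold lower in BMP4 and 6.97-fold lower in Activin+BMP4 than in untreated cells. MMP24OS, on the opposite strand, shares 18.1% of its exon bases. MMP15 rose to 119.7 ± 5.07 CPM in BMP4 and 145.4 ± 16.8 CPM in Activin+BMP4 at 96 h, against 58.5 ± 2.77 CPM in untreated cells. MMP17 and MMP25, which carry lipid anchors, and MMP16 declined: at 96 h in BMP4 they were 2.70-fold, 3.29-fold and 2.19-fold lower than in untreated cells. MMP25-AS1 shares 35.2% of the MMP25 exon bases, which leaves the MMP25 level uncertain.

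A pair of rare transcripts was higher with BMP4 at 96 h. MMP28, epilysin, had 74 counts summed over BMP4 and 1 over Activin+BMP4, and the 95% counting interval of this ratio was 12.8 to 2951.0. MMP28 passed the filter on low counts only through its BMP4 96 h libraries, so its call there is not independent of the filter. MMP10 had 45 counts against 1 (interval 7.65 to 1809.8, adjusted p = 1.19e-05), and 40 in untreated cells. Of the untested members, MMP13 had 10 counts over the 3 BMP4 libraries and 0 over the 3 Activin+BMP4 libraries, and the 95% counting interval of this ratio starts at 2.23. Untreated cells had 3 counts of MMP13, and the interval of BMP4 against them, 0.747 to 16.4, spanned 1. At 96 h the group means of MMP28, MMP10 and MMP13 were below 1 CPM, although replicate 2 of BMP4 had 1.12 CPM of MMP28.

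The proteoglycan-cutting ADAMTS proteases split. ADAMTS1 had 20.0, 20.1 and 22.4 CPM in BMP4 at 48 h, against 81.5, 81.4 and 82.5 CPM in Activin+BMP4 and 31.7, 32.3 and 33.2 CPM in untreated cells. It lay below untreated cells with BMP4 and above them with Activin+BMP4, with no overlap (3.93-fold lower in BMP4 than in Activin+BMP4, log2 -1.97 ± 0.09 SE, adjusted p = 1.12e-22). At 96 h it stood at 58.7 ± 2.69 CPM in BMP4 and 36.0 ± 3.96 CPM in Activin+BMP4, which missed the 2-fold threshold. ADAMTS5, an aggrecan-cutting protease and the neighbour of ADAMTS1 on chromosome 21 (72502 bases away, same strand), was also lower with BMP4, but did not cross over. It had 2.80, 3.03 and 1.57 CPM in BMP4 at 96 h, against 16.8, 17.3 and 11.9 CPM in Activin+BMP4 (6.26-fold lower, adjusted p = 3.37e-17).

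ADAMTS9, which cuts versican and aggrecan, was almost silent at the start. Its libraries had 0.683, 0.644 and 0.713 CPM in untreated cells. At 96 h it had 125.3, 119.2 and 86.8 CPM in BMP4, against 22.2, 22.7 and 17 CPM in Activin+BMP4 (5.35-fold, log2 2.42 ± 0.12 SE, adjusted p = 5.72e-21). Both conditions were far above untreated cells, 161.3-fold in BMP4 and 30.1-fold in Activin+BMP4 (adjusted p = 8.72e-31 and 6.25e-23). ADAMTS8 took the opposite course: at 96 h it had 1.15, 1.44 and 1.47 CPM in BMP4, against 10.4, 9.61 and 10.2 CPM in Activin+BMP4 and 17.4, 17.2 and 18.4 CPM in untreated cells. It was 7.36-fold lower in BMP4 than in Activin+BMP4 at 96 h (adjusted p = 4.47e-21). At 48 h the conditions overlapped, at 2.60, 3.09 and 3.39 CPM in BMP4 and 2.63, 2.91 and 2.29 CPM in Activin+BMP4. Every Activin+BMP4 library was thus higher at 96 h than at 48 h. ADAMTS15, the neighbour of ADAMTS8 on chromosome 11 (19980 bases away, opposite strand), had 4.61, 5.50 and 4.46 CPM in BMP4 at 48 h and 11.9, 12.2 and 11.9 CPM in Activin+BMP4 (adjusted p = 2.09e-12). ADAMTS4 was called in no comparison, at 11.4 ± 1.28 CPM in BMP4 and 10.4 ± 1.28 CPM in Activin+BMP4 at 96 h.

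ADAMTS18 showed the largest fold between the conditions at 48 h among members that reached 10 CPM in 1 of them. It had 14.3, 14.3 and 13.2 CPM in BMP4, against 0.668, 0.831 and 1.01 CPM in Activin+BMP4, 16.5-fold higher (log2 4.05 ± 0.24 SE, adjusted p = 8.33e-18). Activin+BMP4 followed later, and at 96 h the levels were 19.4, 25.2 and 24.6 CPM in BMP4 and 8.71, 7.46 and 4.42 CPM in Activin+BMP4, still without overlap (3.37-fold, adjusted p = 4.83e-11). Untreated cells had 0.203 ± 0.184 CPM.

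The procollagen N-proteinases, which trim fibrillar procollagens, were higher with BMP4 at 96 h in 2 of 3 cases. ADAMTS2 had 18.1, 21.5 and 19.4 CPM in BMP4, against 3.71, 3.21 and 5.01 CPM in Activin+BMP4 and 6.03, 6.11 and 6.12 CPM in untreated cells (4.94-fold, BMP4 over Activin+BMP4, adjusted p = 4.97e-20). ADAMTS3, which also processes the VEGF-C precursor, had 39.1, 38.5 and 34.6 CPM in BMP4 and 13.8, 15.2 and 12.4 CPM in Activin+BMP4 (2.70-fold, adjusted p = 4.39e-19). Neither gene's libraries overlapped between conditions. ADAMTS14 had 1.02 ± 0.378 CPM in BMP4 and 1.08 ± 0.451 CPM in Activin+BMP4 and was not called between them. ADAMTS6, a protease linked to fibrillin microfibrils, had 13.3, 13.7 and 13.0 CPM in BMP4 at 96 h and 2.52, 3.18 and 3.41 CPM in Activin+BMP4 (4.37-fold, adjusted p = 5.14e-15), and its paralog ADAMTS10 was called in no comparison. ADAMTS12 had 22.3, 20.2 and 21.0 CPM in BMP4 at 48 h and 9.04, 10.8 and 11 CPM in Activin+BMP4 (adjusted p = 1.14e-13). Without replicate 1 of Activin+BMP4 48 h that difference was 0.96 on the log2 scale and no longer called. Untreated cells had 23.1, 23.6 and 24.1 CPM of ADAMTS12. Against them it was called lower at 48 h in Activin+BMP4 only, and higher at 96 h in both conditions.

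**Figure D4:**
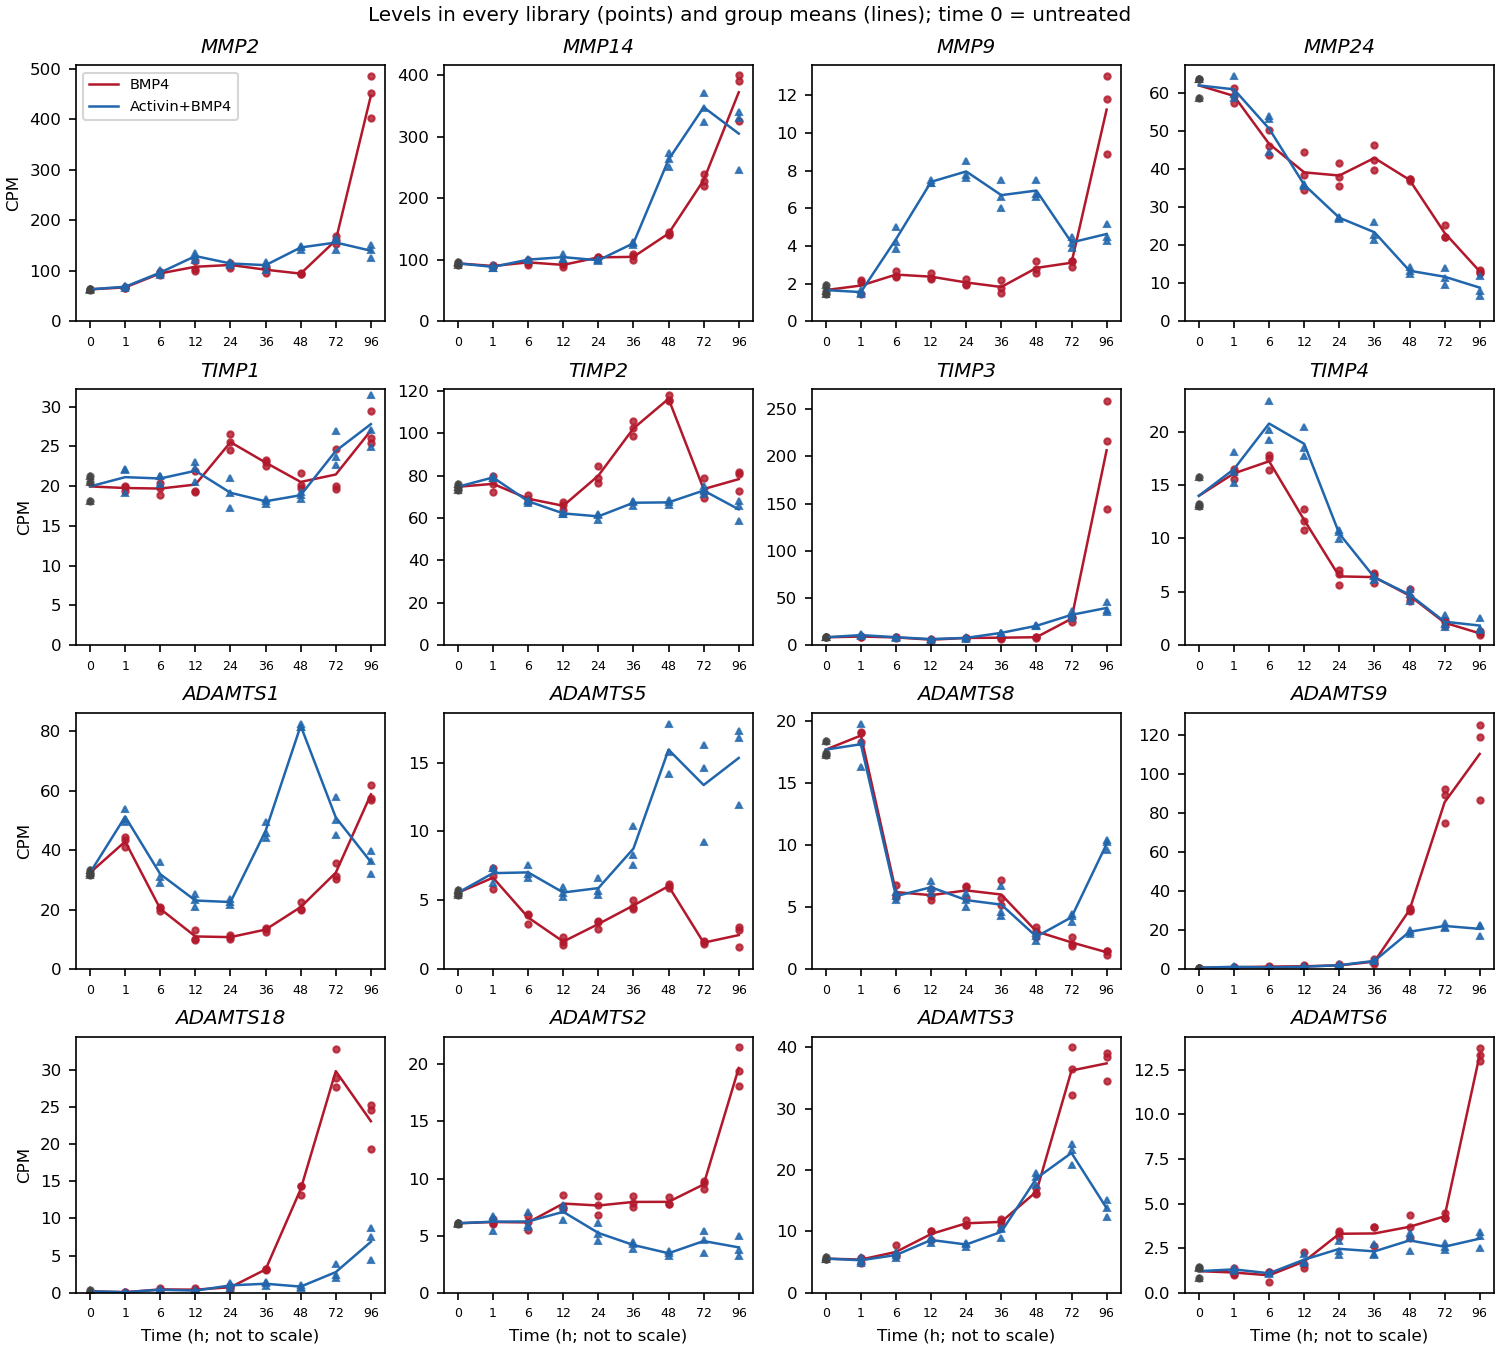
CPM of 16 members by time (hours, spaced evenly), with a point per library and a line through the group means, BMP4 in red circles, Activin+BMP4 in blue triangles and untreated cells in grey at time 0. ADAMTS1 and MMP14 separate by 48 h with Activin+BMP4 above, and TIMP4 and MMP24 decline in both conditions. TIMP3 and MMP2 are higher in Activin+BMP4 at 48 h and higher in BMP4 at 96 h.

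Whether the difference between conditions itself changed was tested from 48 h to 96 h. It moved towards BMP4 for 12 members and away from it for 5, where 15.7% of all genes were called (7.22% towards BMP4, 8.5% away). The largest shift among members with over 10 CPM was that of TIMP3, 3.66 ± 0.18 SE on the log2 scale (adjusted p = 8.25e-21). ADAMTS1 (2.68 ± 0.12, adjusted p = 1.84e-22), MMP9 (2.56 ± 0.18, adjusted p = 1.43e-15) and MMP2 (2.30 ± 0.09, adjusted p = 1.00e-23) shifted the same way. TIMP3 and MMP9 were called lower in BMP4 at 48 h and higher at 96 h. Shifting away from BMP4 were ADAMTS8 (-3.09 ± 0.21), ADAMTS18 (-2.30 ± 0.31), ADAMTS5 (-1.24 ± 0.23), MMP16 (-1.12 ± 0.10) and MMP11 (-1.02 ± 0.21). The call of MMP11 was lost on leaving out any of 5 single libraries, and that of ADAMTS5 (-0.99) without replicate 3 of BMP4 96 h.

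**Figure D5:**
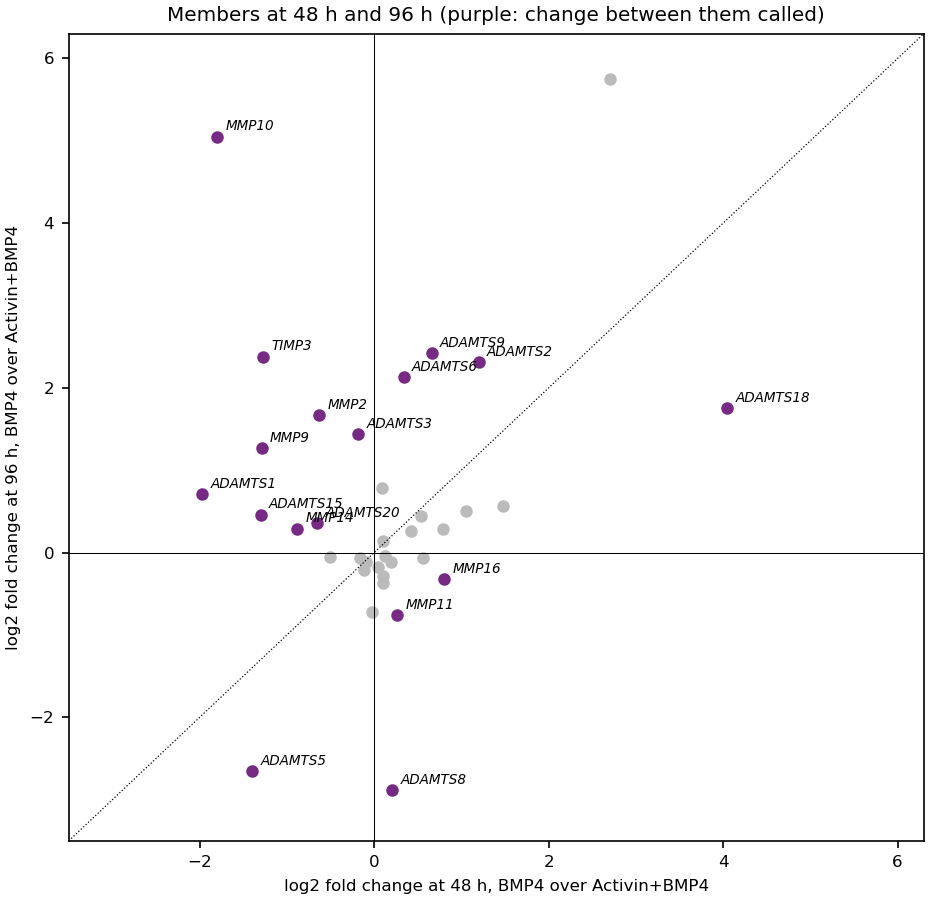
Log2 fold change of BMP4 over Activin+BMP4 at 48 h (x) and 96 h (y) for the 36 tested members, with the line of equal values dotted and members whose difference changed between these times in purple. TIMP3 and MMP9 lie left of 0 and above 0, and ADAMTS8 lies near 0 on x and at -2.88 on y.

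Both conditions share the untreated cells as controls. Against them BMP4 had 0 members higher and 1 lower at 6 h, where 4.99% of all genes were called (3.44% higher, 1.56% lower). It had 4 higher and 4 lower at 24 h, beside 7.21% (4.92% higher, 2.29% lower), 6 and 6 at 48 h, beside 12.2% (8.15% higher, 4.07% lower), and 13 and 10 at 96 h, beside 23.2% (14.6% higher, 8.54% lower). Activin+BMP4 had 1 higher and 1 lower at 6 h, beside 5.69% (3.92% higher, 1.77% lower), and 4 and 2 at 24 h, beside 8.08% (4.38% higher, 3.7% lower). It had 11 and 7 at 48 h, beside 15.8% (9.24% higher, 6.56% lower), and 14 and 8 at 96 h, beside 26.5% (16.5% higher, 9.96% lower). At 6 h, the earliest time set against untreated cells, ADAMTS8 fell in both conditions, to 6.19 ± 0.511 CPM in BMP4 and 5.87 ± 0.338 CPM in Activin+BMP4, against 17.7 ± 0.624 CPM in untreated cells (adjusted p = 3.26e-14 and 8.22e-15). MMP9 rose in Activin+BMP4 at 6 h, to 4.36 ± 0.594 CPM against 1.66 ± 0.245 CPM in untreated cells (adjusted p = 4.49e-10). ADAMTS17 and ADAMTS19, a related pair of less studied proteases, had their highest group mean in BMP4 at 48 h: ADAMTS19 had 111.1 ± 2.36 CPM in BMP4 at 48 h, against 54.6 ± 0.569 CPM in untreated cells. ADAMTS16 and ADAMTS20 were lower in both conditions at 96 h, by 4.77-fold and 3.38-fold in BMP4 and by 4.60-fold and 4.35-fold in Activin+BMP4. The 6 tested members called in none of the 17 comparisons were MMP19, ADAMTS4, ADAMTS7, ADAMTS10, TIMP1 and TIMP2. ADAMTS7 has pseudogenes and MMP23B a near-identical copy, so their counts may be shared.

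Cell type markers also differed between the conditions. At 48 h all 5 definitive endoderm markers (52.9 to 55.8 CPM summed in BMP4, 1559.6 to 1678.4 CPM in Activin+BMP4) and all 4 primitive streak markers (313.8 to 329.9 CPM in BMP4, 1318.0 to 1339.6 CPM in Activin+BMP4) were lower in BMP4. All 5 amnion markers were higher in BMP4 at 48 h (237.4 to 247.1 CPM, against 40.9 to 45.8 CPM in Activin+BMP4). Of 6 mesoderm and mesenchyme markers 3 were higher and 1 (SNAI2) was lower at that time, with sums of 177.3 to 184.3 CPM in BMP4 and 21.7 to 23.9 CPM in Activin+BMP4. At 96 h 6 of 6 mesoderm and mesenchyme markers were higher in BMP4, with summed levels of 1100.1 to 1243.4 CPM in BMP4, 7.83 to 11.3 CPM in Activin+BMP4 and 1.45 to 1.57 CPM in untreated cells, where HAND2 was at 0. All 5 definitive endoderm markers were lower in BMP4, with summed levels of 66.1 to 78.9 CPM in BMP4 and 2749.2 to 3661.0 CPM in Activin+BMP4. Of 5 amnion markers 4 were higher in BMP4 (673.6 to 783.2 CPM, against 35.6 to 51.3 CPM in Activin+BMP4). Among the 5 pluripotency markers, 2 were lower in BMP4, and the sum was 1225.2 to 1318.7 CPM in BMP4, 2127.5 to 2391.1 CPM in Activin+BMP4 and 3589.7 to 3698.0 CPM in untreated cells. Of 4 primitive streak markers 1 (TBXT) was higher and 3 were lower in BMP4 (147.4 to 181.0 CPM, against 481.6 to 628.2 CPM in Activin+BMP4). Both tested neural markers, PAX6 and OTX2, were lower in BMP4 (76.2 to 93.3 CPM over the list, against 300.3 to 357.4 CPM in Activin+BMP4). The neural list summed to 78.3 to 85.0 CPM in untreated cells. Against them at 96 h PAX6 was called higher in BMP4, and both genes in Activin+BMP4. The endothelial and blood markers summed to 59.7 to 75.3 CPM in BMP4, where HBZ was at 0, and 27.9 to 29.5 CPM in Activin+BMP4. None of the 2 tested trophoblast markers was called in edgeR's test, with sums of 36.9 to 38.1 CPM in BMP4 and 30.1 to 33.1 CPM in Activin+BMP4, where CGA and CGB5 were at 0. The part of these cell populations in the protease differences was not tested.

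Other genes of pericellular proteolysis were counted from fixed lists, beside 9.25% of all genes called at 48 h and 15.6% at 96 h. Of 8 plasminogen system genes 6 were tested, and at 48 h 1 was higher and 3 lower in BMP4, while at 96 h 2 were higher and none lower. The list still summed lower in BMP4 at 96 h, to 627.8 to 783.6 CPM against 899.1 to 1211.6 CPM in Activin+BMP4. PLAT, tissue plasminogen activator, had 12.8 ± 3.36 CPM in BMP4 and 1.16 ± 0.252 CPM in Activin+BMP4 at 96 h (adjusted p = 3.33e-21). Against untreated cells at 96 h PLAT was called lower in Activin+BMP4 and was not called in BMP4. Of 7 ADAMTS-like genes, which lack the protease domain, 4 were higher and 1 lower in BMP4 at 96 h, led by ADAMTSL2 with 19.3 CPM in BMP4 and 0.851 CPM in Activin+BMP4 (adjusted p = 6.31e-22). Of 12 ADAM genes 4 were higher, of 5 procollagen-processing genes 1 (BMP1), and of 8 tested membrane and secreted regulators 2 (CD44 and A2M). Among 18 matrix substrates 7 were higher in BMP4 at 96 h and none lower. COL3A1, the chain of type III collagen and also in the mesenchyme list, had 446.2 ± 23.6 CPM in BMP4 and 0.257 ± 0.163 CPM in Activin+BMP4 (adjusted p = 3.60e-40). HAPLN1, which links hyaluronan to proteoglycans, had 840.8 ± 60.9 CPM in BMP4 and 27.4 ± 6.35 CPM in Activin+BMP4 (adjusted p = 7.42e-35).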

How the data were processed

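RNA-seq counts were analysed for 51 libraries of H1 cells. Per the submitters' processing notes, cutadapt 1.5, STAR 2.5.2a, RSEM 1.3.0 and GRCh38 were used; roles, annotation release and strand setting are not given in the sources used here. The authors deposited whole-number counts for 58051 gene rows, and whether they are reads or rounded RSEM estimates is not stated; they were used as counts. Symbols came from a name table for 98.1% of rows. Exon overlaps came from GENCODE release 29 and promoters from RefSeq.

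edgeR 4.0.16 (R 4.3.3) fitted all 51 libraries with 1 mean per group after filterByExpr (minimum count 10, minimum total 15; 19603 genes, 99.95% of counts) and TMM factors of 0.966 to 1.03, with 17 quasi-likelihood comparisons. CPM per kb divides CPM by the exon length. Intervals and floors cover counting error only. On simulated counts for BMP4 vs Activin+BMP4 at 96 h (18851 genes), 0% of 67 genes changed 1.5-fold, 98.5% of 67 changed 3-fold, 100% of 66 changed 8-fold and 0.0161% of 18651 unchanged genes were called. The 2-fold threshold by itself keeps the shares low for unchanged genes and those changed 1.5-fold. Simulated counts followed the fitted dispersion trend, and no gene as rare as MMP10 or MMP28 was changed. Such genes and outlying libraries were thus not covered. Alternatives were RLE or no scaling factors, no or a stricter filter, no fold threshold, DESeq2 1.42.0, only the groups compared, a replicate block, leaving out the 3 libraries that stood apart and each of the 51 libraries in turn; the last kept the dispersion trend of all libraries.

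Members and lists were chosen with earlier results of these data known. By rule any member could be named, library values were given for members called between conditions that reached 10 CPM in either, and list genes were named by the largest fold among those with at least 10 CPM. Values of some list genes are not reported here.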

Additional observations from a re-analysis of the deposited data

Results flagged for a closer look

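For 17 members the difference between BMP4 and Activin+BMP4 at 96 h differed from that at 48 h by edgeR's test of the change itself (log2, 96 h minus 48 h). Positive values, towards BMP4, were found for MMP10 (6.85, on 1 to 45 counts a group), TIMP3 (3.66), ADAMTS1 (2.68), MMP9 (2.56), MMP2 (2.30), ADAMTS6 (1.79), ADAMTS9 (1.76), ADAMTS15 (1.76), ADAMTS3 (1.61), MMP14 (1.17), ADAMTS2 (1.11) and ADAMTS20 (1.01). The call of ADAMTS20 was lost without scaling factors (0.96) and on leaving out any of 6 single libraries (0.91 to 0.99), and that of ADAMTS2 without replicate 2 of Activin+BMP4 96 h (0.97). Negative values were found for ADAMTS8 (-3.09), ADAMTS18 (-2.30), ADAMTS5 (-1.24), MMP16 (-1.12) and MMP11 (-1.02). Adjusted p-values ran from 1.00e-23 for MMP2 to 2.33e-04 for MMP10.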

How the results depend on the processing

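Of 143 called values none reversed under any alternative. Among members still tested, DESeq2, the absence of scaling factors, the stricter filter and a fit of only the groups compared lost 1 each. Members that an alternative filtered out are not in these losses. Between conditions the stricter filter and the fit of only the groups compared each called 4 members at 72 h and 11 at 96 h. The main fit called 5 and 12. No filter lost 2 and RLE factors lost none. Leaving out the 3 libraries that stood apart lost 4: ADAMTS1 at 12 h (-1.0), MMP11 in the change (-0.86) and, in Activin+BMP4 vs untreated, ADAMTS17 at 48 h (0.99) and MMP23B at 96 h (0.80). Leaving out each library in turn lost 20 at least once. Among them were ADAMTS1 at 12 h (-0.99 without replicate 1 of BMP4 12 h), ADAMTS2 at 72 h (0.91 without replicate 1 of Activin+BMP4 72 h) and MMP28 at 72 h (adjusted p = 0.143 in edgeR without replicate 1 of BMP4 72 h, and 0.205 with DESeq2 on all libraries).

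Without the fold threshold, called members in BMP4 vs Activin+BMP4 numbered 3, 7, 19, 19, 19, 16 and 27 of 36 at 6, 12, 24, 36, 48, 72 and 96 h, beside 4.02, 9.02, 29.3, 27.7, 41.0, 39.5 and 54.4% of all genes. They numbered 17, 23 and 25 in BMP4 vs untreated at 6, 24 and 48 h (34.8, 38.8 and 50.0% of all genes), 16, 21 and 30 in Activin+BMP4 vs untreated at those times (36.2, 40.1 and 52.6%), and 26 in the change from 48 h to 96 h (48.7%). BMP4 at 6 h vs untreated gave 2 without the filter and 2 with DESeq2. With libraries left out in turn the counts ranged from 3 to 5 at 36 h (5 without replicate 2 of Activin+BMP4 36 h) and, for BMP4 at 6 h vs untreated, from 1 to 2 (2 without replicate 2 or replicate 3 of untreated cells). The replicate block changed no call, with 12 members called at 96 h. Same-numbered libraries did not pair: correlations of their deviations ran from -0.23 to 0.23. The median of all genes shifted by at most 0.048 (log2) without scaling factors. Counts under about 10 per library limit MMP10 and MMP28.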
